A study of Mus musculus with 14 samples.

Results

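The interleukin-1 (IL-1) family and its receptors were followed in mouse hematopoietic progenitor cells (HPCs) through 10 genes, chosen by gene symbol. The agonist ligands were Il1a, Il1b, Il18 and Il33, the inhibitors were Il1rn and Il1r2, and the signalling receptors were Il1r1, Il1rap, Il18r1 and Il1rl1. Of these 10 genes, 9 had a probe set, with 1 each, among the 22206 probe sets tested. Il1rl1, the receptor for interleukin-33, was not listed in the probe annotation and is named only. The HPCs were bone marrow cells depleted of mature lineages, grown in culture and exposed to a retrovirus, and their RNA was read on 14 whole-transcript arrays. The cells came from mice homozygous for a mutant allele of Polg (Hom, Polg mut/mut), heterozygous mice (Het, Polg wt/mut) or wild-type mice (WT, Polg wt/wt). Polg encodes the catalytic chain of the mitochondrial DNA polymerase. The NMyc virus, MSCV-NMyc-IRES-YFP, carried N-Myc and a yellow fluorescent marker, and the Ctrl virus, MSCV-IRES-YFP, carried the marker alone. There were 2 arrays each of Hom-NMyc, Het-NMyc, WT-NMyc and Hom-Ctrl, and 3 each of Het-Ctrl and WT-Ctrl, all labelled as biological replicates. All groups shared the culture and the infection, N-Myc was driven by the viral vector rather than by its own locus, and the labels give neither the age of the mice nor a sort of the infected cells. The series asked how N-Myc and an accumulation of somatic mitochondrial DNA mutations alter gene expression.

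Interleukin-1 alpha (Il1a) and interleukin-1 beta (Il1b) bind the receptor IL1R1, which then recruits the accessory protein IL1RAP and signals through MyD88, IRAK kinases and NF-kappaB. The antagonist encoded by Il1rn occupies IL1R1 without recruiting the accessory protein, and IL1R2 is a decoy that binds the ligands without a signalling domain. Interleukin-18 and interleukin-33 use related receptors, and in bone marrow IL-1 is known as an inflammatory signal that drives progenitors toward myeloid output.

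The promoters of the 4 members that differed between Hom-Ctrl and WT-Ctrl are shown because Il1a and Il1b were higher there while Il1r2 and Il1rn were lower. Each window holds 250 bases before and 50 bases after a RefSeq transcript start (build GRCm38.p6) and reads 5′ to 3′ on the gene's strand. Capitals mark the matches to 3 motifs searched on both strands, the E-box CACGTG, the AP-1 site TGANTCA and the TATA box TATAAA. The kappaB consensus, searched likewise, had 0 matches in these 4 windows. No match overlapped another. The windows lie at chr1:40085843-40086142 on the plus strand (Il1r2), chr2:24336610-24336909 on the plus strand (the first of 3 Il1rn windows), chr2:129371090-129371389 on the minus strand (Il1b) and chr2:129309923-129310222 on the minus strand (Il1a).
Il1r2: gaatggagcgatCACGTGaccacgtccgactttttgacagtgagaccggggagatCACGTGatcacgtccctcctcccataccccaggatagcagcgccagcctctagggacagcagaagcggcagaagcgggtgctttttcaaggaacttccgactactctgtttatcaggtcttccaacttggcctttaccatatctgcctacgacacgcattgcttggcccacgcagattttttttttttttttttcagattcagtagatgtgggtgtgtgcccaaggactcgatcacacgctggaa
Il1rn: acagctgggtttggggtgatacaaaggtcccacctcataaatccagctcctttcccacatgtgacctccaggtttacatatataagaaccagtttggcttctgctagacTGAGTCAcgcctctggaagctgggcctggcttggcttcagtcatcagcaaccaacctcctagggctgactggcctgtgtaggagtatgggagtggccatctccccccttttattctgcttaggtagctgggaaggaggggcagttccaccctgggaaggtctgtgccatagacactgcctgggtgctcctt
Il1b: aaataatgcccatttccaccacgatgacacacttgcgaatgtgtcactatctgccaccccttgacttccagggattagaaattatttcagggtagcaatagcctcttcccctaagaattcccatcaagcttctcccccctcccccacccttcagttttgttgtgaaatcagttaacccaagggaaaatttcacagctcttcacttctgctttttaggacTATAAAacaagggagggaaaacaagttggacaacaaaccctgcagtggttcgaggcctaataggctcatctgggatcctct
Il1a: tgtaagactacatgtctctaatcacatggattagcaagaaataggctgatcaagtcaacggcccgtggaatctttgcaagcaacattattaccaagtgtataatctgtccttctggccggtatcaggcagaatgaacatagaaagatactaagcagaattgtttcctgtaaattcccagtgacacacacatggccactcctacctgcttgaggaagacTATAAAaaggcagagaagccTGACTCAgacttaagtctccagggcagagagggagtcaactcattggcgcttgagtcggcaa

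The Il1r2 window held 2 E-boxes, the letters that Myc proteins bind, whose first bases lay at positions -238 and -195 from the start. No other of the 17 windows of the 10 genes held an E-box. Over all 32851 windows of 27025 genes, 7.15% held at least 1 E-box and 0.594% held 2 or more. Il1b had a TATA box at position -31 and Il1a at -32, and 13.6% of all windows held 1. Matches to these letters also stood at -175 in Il18, at -203 and -29 in the windows of Il33, and at 15 in the last Il1rn window. An AP-1 site stood at position -12 in Il1a and at -141 in Il1rn, against 7.81% of all windows. The kappaB consensus matched in 1 of the members' windows, the second of Il1r1, and in 8.46% of all windows. These matches describe letters only and are neither sites of binding nor causes of the values below. By gene order, Il1r2, Il1r1, Il1rl2, Il1rl1, Il18r1 and Il18rap stand next to each other on chromosome 1, and Il1a and Il1b are neighbours on chromosome 2. Il1rn lies elsewhere on chromosome 2, beside Il1f10.

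All values are log2 values per probe set, and array medians lay between 6.29 and 6.38. Levels are set against the median of the negative control sets on the same array (4.39 to 4.87), below which a gene is called not above background, and against their 95th percentile (7.15 to 8.004). Mycn read 12.15 to 12.38 on the NMyc arrays and 7.43 to 7.76 on the Ctrl arrays other than the array labelled Hom-Ctrl replicate 1. That array read 9.77, between the Ctrl and NMyc arrays, so the members' called differences that rest on Hom-Ctrl are also given without it. Of 8 progenitor markers 6 had a probe set, all but Flt3 above background on all 14 arrays (Kit at 9.09 to 10.10), and markers of mature myeloid cells were present too. The mean of 8 monocyte and macrophage markers (8 of 10 listed had a probe set) was 7.57 to 7.63 in Hom-NMyc, 7.70 to 7.79 in Het-NMyc and 7.69 to 7.81 in WT-NMyc. It was 8.62 to 9.57 in Hom-Ctrl, 9.13 to 9.93 in Het-Ctrl and 9.68 to 10.15 in WT-Ctrl. Of 5 measured eosinophil markers, Epx, Prg2 and Siglecf were above background on all 14 arrays and Ccr3 and Il5ra on 0. Of 7 lymphoid markers, Cd3e, Nkg7, Il7r and Rora were above it on all 14 arrays, Cd3g on 13, and Ncr1 and Klrb1c, which mark NK cells, on 0. Of 9 stromal and endothelial markers, Col1a1, Col1a2, Pdgfrb, Cxcl12 and Pecam1 were above it on all 14 arrays, Col3a1 on 8, Cdh5 on 6, Kdr on 4 and Lepr on 0. In such bulk samples, fewer cells of a type and less RNA per cell cannot be told apart.

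N-Myc came with lower values of the agonist Il1b, the antagonist Il1rn and the interleukin-18 receptor chain Il18r1 in each genotype. In the average of the 3 genotype-wise differences, 6 of 9 members fell (Il1a, Il1b, Il1rn, Il1r2, Il1r1 and Il18r1) and 0 rose. Over all probe sets tested, 33.6% were called in this comparison, 18.2% as higher and 15.5% as lower. The members' median difference was -0.87, against -0.02 over all probe sets. Without the array labelled Hom-Ctrl replicate 1 the same 6 were called, with Il1a at -0.81, Il1b at -2.46, Il1rn at -2.43, Il1r2 at -0.78, Il1r1 at -0.47 and Il18r1 at -2.05. Groups were fully separate, with all 6 NMyc arrays below all 8 Ctrl arrays, for Il1b, Il1rn and Il18r1, a pattern that 6.58% of all probe sets had.

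**Figure D1:**
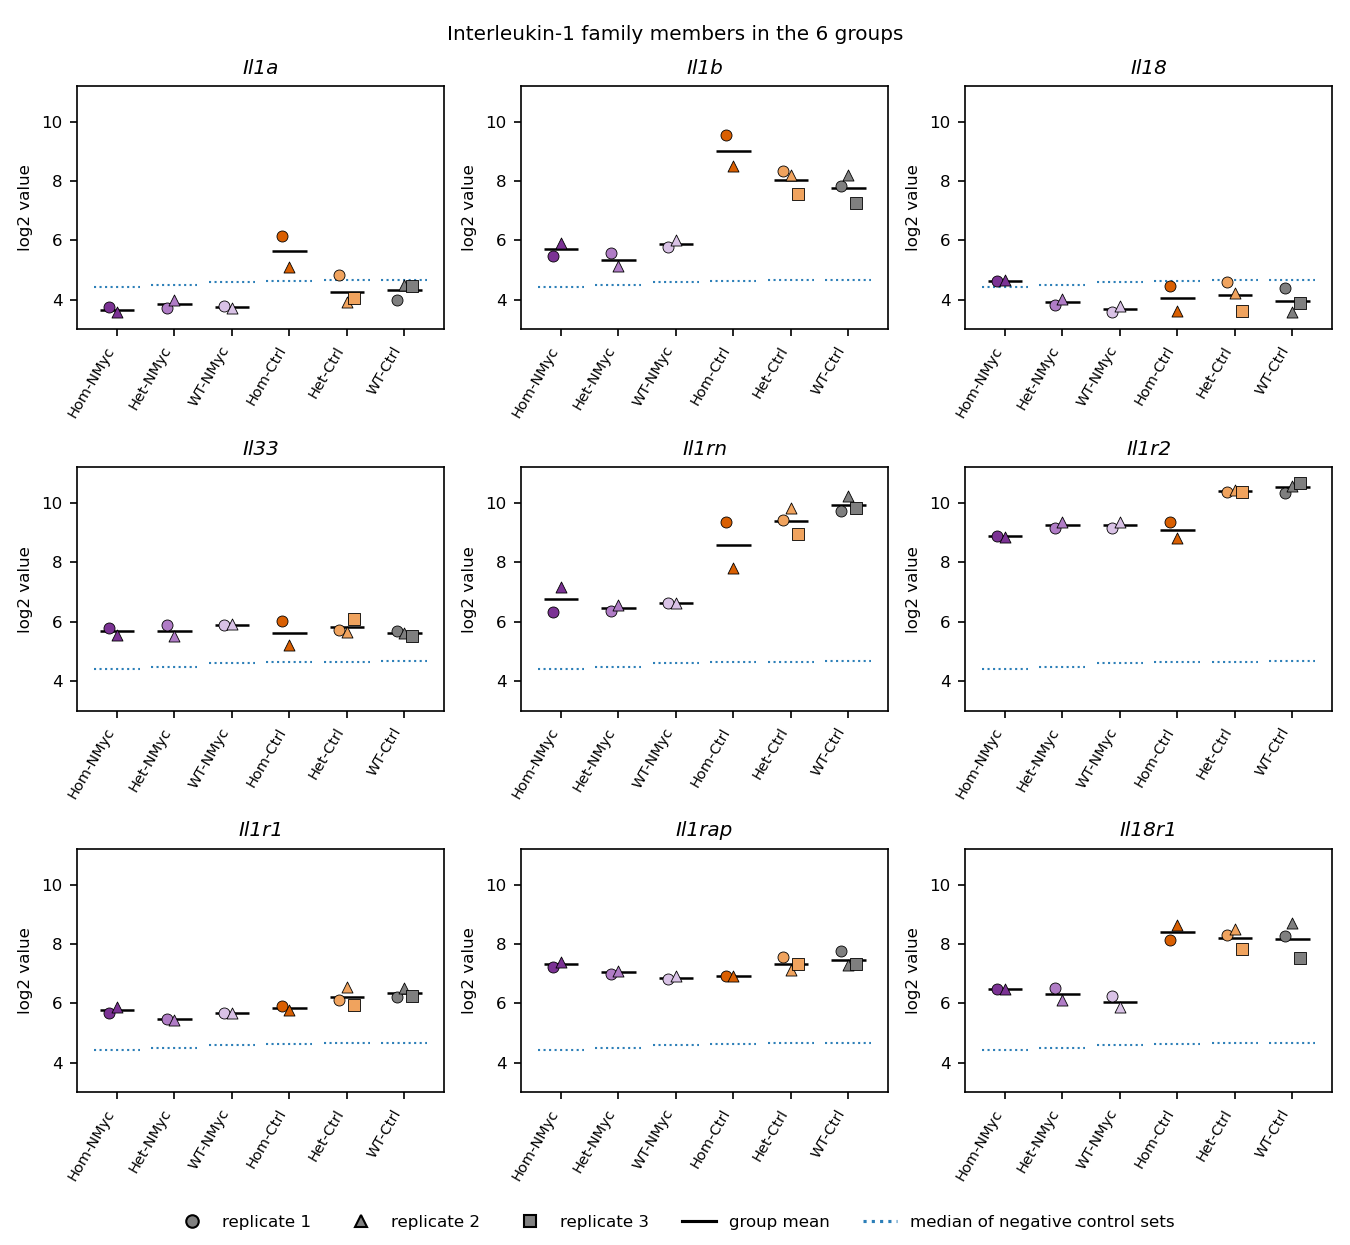
Log2 values of the 9 measured members on each array (points; circle, triangle and square for replicates 1, 2 and 3) by group, with the group mean (bar) and the median of the negative control sets (dotted). Il1b, Il1rn and Il18r1 lie lower on every NMyc array than on every Ctrl array, while Il1r2 on the 2 Hom-Ctrl arrays lies at 9.36 and 8.81, below the 6 other Ctrl arrays.

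Il1b, the secreted agonist, read 5.47 and 5.92 in Hom-NMyc, 5.56 and 5.12 in Het-NMyc and 5.77 and 5.999 in WT-NMyc. It read 9.55 and 8.49 in Hom-Ctrl, 8.34, 8.20 and 7.54 in Het-Ctrl and 7.83, 8.21 and 7.27 in WT-Ctrl. The vectors did not overlap in any genotype, and among the Ctrl arrays both of Hom-Ctrl were the highest. Group means were 5.69 ± 0.31 in Hom-NMyc, 5.34 ± 0.31 in Het-NMyc, 5.88 ± 0.16 in WT-NMyc, 9.02 ± 0.75 in Hom-Ctrl, 8.03 ± 0.42 in Het-Ctrl and 7.77 ± 0.47 in WT-Ctrl (SD). Arrays of Het-Ctrl and WT-Ctrl overlapped, as did those of Hom-NMyc with both other NMyc groups. Il1b fell by 2.63 on the log2 scale (SE 0.19, limma adjusted p = 4.12e-08), 6.20-fold lower with NMyc. The difference was -3.32 in Hom, -2.69 in Het and -1.89 in WT, each called (limma adjusted p = 2.34e-05, 2.97e-05 and 5.33e-04 in that order). In Hom it was -2.80 without the array labelled Hom-Ctrl replicate 1 (limma adjusted p = 5.56e-04). All NMyc values stood above the median and under the 95th percentile of the negative control sets.

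Il1a, the agonist that is also active as a precursor, was near background on most arrays. It read 3.75 and 3.58 in Hom-NMyc, 3.73 and 4.00 in Het-NMyc and 3.79 and 3.73 in WT-NMyc, not above background on any. It read 6.15 and 5.12 in Hom-Ctrl, 4.83, 3.92 and 4.06 in Het-Ctrl and 4.00, 4.51 and 4.46 in WT-Ctrl. Only 3 of 14 arrays were above background, both of Hom-Ctrl and Het-Ctrl replicate 1. In Hom, NMyc was at least 2.31-fold lower than Ctrl, with dim arrays put at background (limma adjusted p = 4.72e-04). Without the array labelled Hom-Ctrl replicate 1, the fitted difference in Hom was -1.45 in place of -1.97 (limma adjusted p = 0.00942). The other 2 genotypes gave -0.40 in Het and -0.56 in WT, which did not pass the test (limma adjusted p = 0.405 and 0.209). Il1a was called in the average as well (-0.98, SE 0.17, limma adjusted p = 2.44e-04), or -0.52 with dim arrays at background.

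The other 2 agonists were not called for NMyc. Il18, a cytokine matured by caspase-1, was above background on 3 of 14 arrays, both of Hom-NMyc (4.62 and 4.65) and 1 of the 8 Ctrl arrays. It read 3.81 and 4.02 in Het-NMyc, 3.59 and 3.79 in WT-NMyc, and 3.59 to 4.61 over the Ctrl arrays. Il33, an alarmin stored in the nucleus, stayed between 5.21 and 6.09 on all 14 arrays. The averaged differences were 0.02 for Il18 and 0.08 for Il33 (SE 0.17 and 0.13, limma adjusted p = 0.938 and 0.706). No exact difference is given for Il18 in Hom, where neither Hom-Ctrl array was above background. With dim arrays at background it was -0.01, which sets the Hom-NMyc values against the Hom-Ctrl arrays' own background levels of 4.54 and 4.74.

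Among the inhibitors, Il1rn, the receptor antagonist, read 6.35 and 7.18 in Hom-NMyc, 6.35 and 6.57 in Het-NMyc and 6.62 and 6.64 in WT-NMyc. It read 9.36 and 7.80 in Hom-Ctrl, 9.42, 9.82 and 8.96 in Het-Ctrl and 9.74, 10.25 and 9.84 in WT-Ctrl. Every NMyc array was below every Ctrl array, and Hom-Ctrl replicate 2 was the lowest of the Ctrl arrays by more than 1 unit. The averaged difference was -2.69 (SE 0.21, limma adjusted p = 1.03e-07), a 6.45-fold lower value. By genotype it was -1.82 in Hom, -2.94 in Het and -3.31 in WT (limma adjusted p = 0.00424, 3.82e-05 and 1.34e-05). The call in Hom was lost without the array labelled Hom-Ctrl replicate 1 (-1.04, limma adjusted p = 0.0735) and without Hom-NMyc replicate 1 (-1.41, limma adjusted p = 0.0677). The monocyte and macrophage markers given above were also lower on the NMyc arrays, with 0 of 8 called higher and 8 of 8 called lower. The neutrophil markers had 3 of 10 called higher and 7 lower, and those of mast cells and basophils 1 of 10 higher and 8 lower. Progenitor markers (6) had 0 and 3, eosinophil markers (5) 0 and 3, stromal and endothelial markers (9) 0 and 1, and lymphoid markers (7) 0 and 1. These counts are for the average over genotypes, in which 18.2% of all probe sets were called higher and 15.5% lower. The part of these cell markers in the values of Il1rn and Il1b was not tested.

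Il1r2, the decoy receptor, read 8.90 and 8.86 in Hom-NMyc, 9.16 and 9.38 in Het-NMyc and 9.15 and 9.37 in WT-NMyc. It read 9.36 and 8.81 in Hom-Ctrl, 10.37, 10.45 and 10.37 in Het-Ctrl and 10.36, 10.57 and 10.68 in WT-Ctrl. The vectors were apart by about 1 unit in Het and WT and overlapped in Hom, where the Hom-Ctrl arrays lay on either side of the 2 Hom-NMyc arrays. Group means were 8.88 ± 0.03 in Hom-NMyc, 9.27 ± 0.15 in Het-NMyc, 9.26 ± 0.15 in WT-NMyc, 9.09 ± 0.39 in Hom-Ctrl, 10.40 ± 0.05 in Het-Ctrl and 10.53 ± 0.16 in WT-Ctrl (SD). The mean of Hom-Ctrl thus stood among those of the NMyc groups. The differences were -1.13 in Het and -1.27 in WT, both called (limma adjusted p = 2.06e-04 and 7.92e-05). In Hom the difference was -0.20 (SE 0.19, limma adjusted p = 0.528), which did not pass the test. Its sign turned without the array labelled Hom-Ctrl replicate 1 (0.07, limma adjusted p = 0.886), and it was -0.48 without Hom-Ctrl replicate 2 (limma adjusted p = 0.123). This gene was above the 95th percentile of the negative control sets on all 14 arrays.

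Of the signalling receptors, Il1r1, the chain that binds IL-1, read 5.67 and 5.86 in Hom-NMyc, 5.48 and 5.44 in Het-NMyc and 5.66 and 5.66 in WT-NMyc. It read 5.92 and 5.77 in Hom-Ctrl, 6.11, 6.54 and 5.95 in Het-Ctrl and 6.22, 6.51 and 6.26 in WT-Ctrl. The vectors overlapped in Hom and were separate in Het and WT. The differences were -0.74 in Het (limma adjusted p = 0.00573) and -0.67 in WT (limma adjusted p = 0.011), against -0.08 in Hom (limma adjusted p = 0.833). The call in Het was lost without Het-NMyc replicate 2 (limma adjusted p = 0.0551), and that in WT without WT-NMyc replicate 1 or 2 (limma adjusted p = 0.0729 and 0.0783). No array had Il1r1 above the 95th percentile of the negative control sets.

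Il1rap, the accessory chain shared by several family receptors, read 7.23 and 7.39 in Hom-NMyc, 6.99 and 7.08 in Het-NMyc and 6.81 and 6.92 in WT-NMyc. It read 6.91 and 6.93 in Hom-Ctrl, 7.55, 7.13 and 7.33 in Het-Ctrl and 7.77, 7.30 and 7.31 in WT-Ctrl. NMyc arrays were lower than Ctrl arrays in WT and Het and higher in Hom, without overlap in any of the 3. Only the WT difference of -0.60 passed the test (limma adjusted p = 0.0202), against 0.39 in Hom and -0.30 in Het (limma adjusted p = 0.18 and 0.281). That call was lost without WT-Ctrl replicate 1 (-0.44, limma adjusted p = 0.0747), WT-NMyc replicate 1 (-0.55, limma adjusted p = 0.144) or WT-NMyc replicate 2 (-0.65, limma adjusted p = 0.0811).

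Il18r1, the ligand-binding chain for interleukin-18, read 6.49 and 6.48 in Hom-NMyc, 6.53 and 6.10 in Het-NMyc and 6.24 and 5.87 in WT-NMyc. It read 8.15 and 8.64 in Hom-Ctrl, 8.29, 8.49 and 7.82 in Het-Ctrl and 8.26, 8.71 and 7.52 in WT-Ctrl. The NMyc arrays lay below the Ctrl arrays in each genotype, and Hom-Ctrl lay within the other Ctrl arrays. The differences were -1.91 in Hom, -1.89 in Het and -2.11 in WT (limma adjusted p = 6.02e-04, 2.26e-04 and 9.05e-05). In Hom it was -2.15 without the array labelled Hom-Ctrl replicate 1 (limma adjusted p = 0.00277).

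Counted by genotype, 4 of 9 members fell with NMyc in Hom (Il1a, Il1b, Il1rn and Il18r1), where 17.7% of all probe sets were called and 7.01% were lower. In Het 5 of 9 fell (Il1b, Il1rn, Il1r2, Il1r1 and Il18r1), with 19.1% of all called and 8.0% lower. In WT 6 of 9 fell (those 5 and Il1rap), with 19.1% of all called and 9.05% lower. No member was called higher in any genotype. Sample codes fall into 3 blocks of adjacent numbers, here called runs, and within runs 2 and 3 each matched NMyc array was below its Ctrl array for Il1b, Il1rn and Il18r1. For Il1b the difference within run 2 was -3.02 in Hom, -2.65 in Het and -2.44 in WT, and within run 3 -2.42 in Het and -1.27 in WT.

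**Figure D2:**
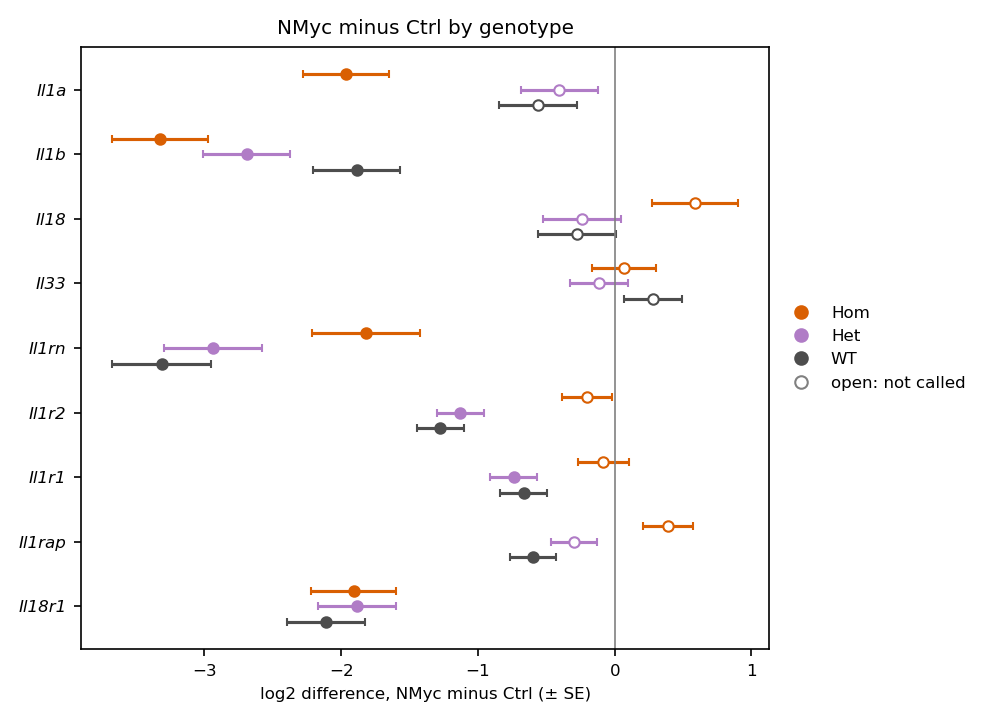
NMyc minus Ctrl log2 difference of each member (x axis, ± SE of the limma model) in Hom, Het and WT cells, filled where limma's adjusted p was under 0.05 and open otherwise. Il1b, Il1rn and Il18r1 were called lower in all 3 genotypes, while Il1r2 and Il1r1 were called in Het and WT and lie at -0.20 and -0.08 in Hom.

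The question of whether the NMyc effect differed between genotypes was put to the difference of the effects. None of the 9 members was called for Hom minus WT, where limma called 0.0811% of all probe sets (0.0721% higher and 0.00901% lower), and 6 members and 1896 probe sets had an unadjusted p under 0.05. The value nearest to a call was that of Il1r2 (1.07, SE 0.25, limma adjusted p = 0.15), followed by Il1rap (0.99, SE 0.25, limma adjusted p = 0.189). Il1r2 passed without the array labelled Hom-Ctrl replicate 1 (1.35, limma adjusted p = 0.0484). The ligands gave -1.40 for Il1a and -1.44 for Il1b (limma adjusted p = 0.293 and 0.353), and Il1rn gave 1.49 (limma adjusted p = 0.404). For Hom minus Het, 0.0315% of all probe sets (0.0225% higher and 0.00901% lower) and 0 members were called, and 4 members and 1537 probe sets had an unadjusted p under 0.05. For Het minus WT the counts were 0% and 0, and 0 members and 730 probe sets had an unadjusted p under 0.05.

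In the Ctrl-infected cells, Hom-Ctrl had higher values of both IL-1 agonists and lower values of the decoy receptor and the antagonist than WT-Ctrl. Il1a and Il1b were called higher and Il1r2 and Il1rn lower, 4 of 9 members, where 3.91% of all probe sets were called (2.03% higher and 1.88% lower). Of these 4, the difference of Il1r2 was called under all 24 alternative settings. Il1a lost its call under 4 of them, Il1b under 14 and Il1rn under 15. Without the array labelled Hom-Ctrl replicate 1 the differences of Il1a and Il1b were 0.79 and 0.72. Without Hom-Ctrl replicate 2 that of Il1rn was -0.59, so these calls lean on different single arrays. Against Het-Ctrl, 2 of 9 members were called, Il1a higher and Il1r2 lower, where 2.40% of all probe sets were called (1.34% higher and 1.06% lower). Both comparisons share the Hom-Ctrl arrays and are therefore not independent. Het-Ctrl and WT-Ctrl differed in 0 members and 0% of all probe sets by limma, with 0 members and 935 probe sets at an unadjusted p under 0.05.

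**Figure D3:**
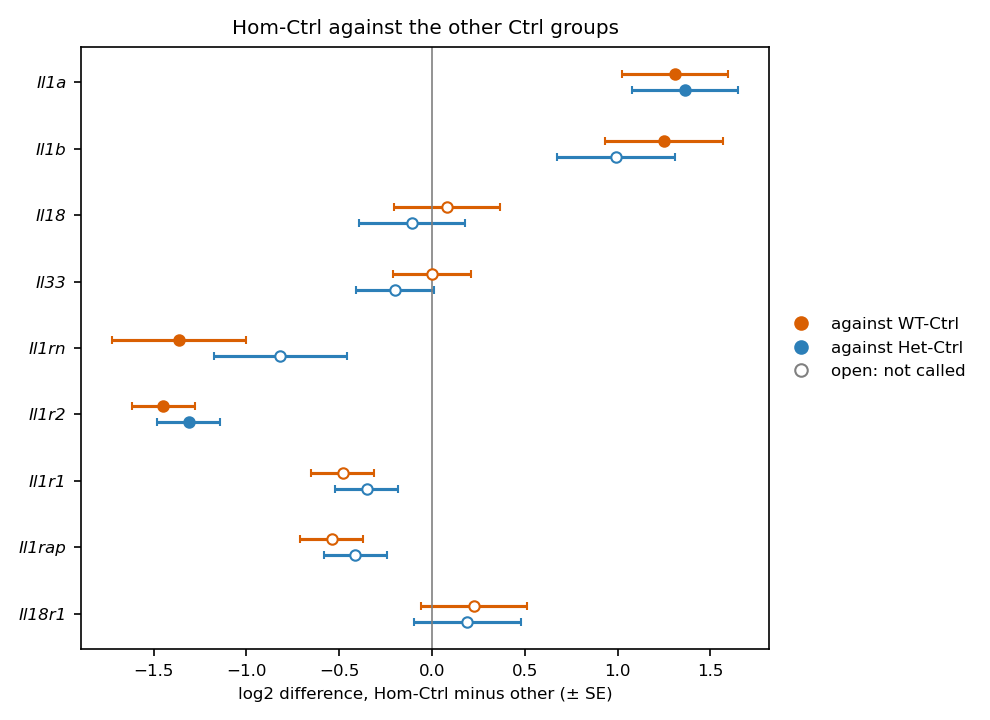
Hom-Ctrl minus WT-Ctrl and Hom-Ctrl minus Het-Ctrl log2 differences of each member (x axis, ± SE of the limma model), filled where limma's adjusted p was under 0.05. Il1r2 lies at -1.45 and -1.31, called against both groups, and Il1a at 1.31 and 1.36, while Il1b and Il1rn were called against WT-Ctrl only.

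Il1r2 stood apart on both Hom-Ctrl arrays. At 9.36 and 8.81 they were below all 6 other Ctrl arrays (10.36 to 10.68), the first within the range of the NMyc arrays (8.86 to 9.38) and the second just under it. The difference was -1.45 from WT-Ctrl (SE 0.17, limma adjusted p = 5.59e-04), a 2.73-fold lower value, and -1.31 from Het-Ctrl (SE 0.17, limma adjusted p = 0.00225). Without the array labelled Hom-Ctrl replicate 1 the difference from WT-Ctrl was -1.72 (limma adjusted p = 5.19e-04), and without Hom-Ctrl replicate 2 it was -1.17 (limma adjusted p = 0.0163). That from Het-Ctrl was -1.59 without the first of these arrays (limma adjusted p = 0.00229) and -1.03 without the second (limma adjusted p = 0.0349). Within run 1 the difference from WT-Ctrl was -0.99 and within run 2 it was -1.76. Mycn read 9.77 on the first of these arrays and 7.61 on the second, and Il1r2 was lower on the second.

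Il1a was above background on both Hom-Ctrl arrays (6.15 and 5.12) and on none of the WT-Ctrl arrays. It was at least 1.94-fold higher in Hom-Ctrl than in WT-Ctrl (fitted difference 1.31, SE 0.28, limma adjusted p = 0.0194). Against Het-Ctrl, where 1 of 3 arrays was above background, it was 1.83-fold higher with dim arrays at background (fitted difference 1.36, SE 0.28, limma adjusted p = 0.0207). Both calls were lost without the array labelled Hom-Ctrl replicate 1, with 0.79 from WT-Ctrl (limma adjusted p = 0.188) and 0.85 from Het-Ctrl (limma adjusted p = 0.173). The call against Het-Ctrl was also lost without Het-Ctrl replicate 2 (1.19, limma adjusted p = 0.0658) or 3 (1.26, limma adjusted p = 0.0902). Within run 1 the difference from WT-Ctrl was 2.15, and within run 2 it was 0.61.

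For Il1b the 2 Hom-Ctrl arrays, at 9.55 and 8.49, were above the 6 other Ctrl arrays (7.27 to 8.34), the second by a small margin. The difference from WT-Ctrl was 1.25 (SE 0.32, limma adjusted p = 0.0398) and that from Het-Ctrl was 0.99 (SE 0.32, limma adjusted p = 0.127). The first was no longer called under 14 of 24 alternative settings, in all of which it stayed positive (0.72 to 1.78 over the 24). Without the array labelled Hom-Ctrl replicate 1 it was 0.72 (limma adjusted p = 0.33) and the difference from Het-Ctrl was 0.46 (limma adjusted p = 0.597). Within run 2 the difference from WT-Ctrl was 0.28, and within run 1 it was 1.71. The call was also lost without WT-Ctrl replicate 1 (limma adjusted p = 0.0626) or 3 (limma adjusted p = 0.131), and without any 1 of the WT-NMyc arrays (limma adjusted p = 0.054) or Hom-NMyc arrays (limma adjusted p = 0.0503). The replicate number as a block also ended it (1.00, limma adjusted p = 0.0769), as did the code run as a block (1.11, limma adjusted p = 0.0546).

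Il1rn differed between the 2 Hom-Ctrl arrays more than any other member, with 9.36 on replicate 1 and 7.80 on replicate 2. The first was within the range of the other Ctrl arrays (8.96 to 10.25) and the second below it. The difference from WT-Ctrl was -1.36 (SE 0.36, limma adjusted p = 0.0462) and that from Het-Ctrl was -0.82 (SE 0.36, limma adjusted p = 0.297). Without the array labelled Hom-Ctrl replicate 1 the values were -2.14 (limma adjusted p = 0.00436) and -1.59 (limma adjusted p = 0.0238), both called. Without Hom-Ctrl replicate 2 the difference from WT-Ctrl was -0.59 (limma adjusted p = 0.477). The call was lost under 15 of 24 settings, among them without WT-Ctrl replicate 1, 2 or 3 (limma adjusted p = 0.0568, 0.114 and 0.0898), Het-Ctrl replicate 1 (limma adjusted p = 0.0575), any 1 of the WT-NMyc arrays (limma adjusted p = 0.0642) or of the Het-NMyc arrays (limma adjusted p = 0.0611), and with the replicate number as a block (-1.50, limma adjusted p = 0.0615). The code run as a block ended it too (-1.40, limma adjusted p = 0.0625). Within run 1 the difference was -0.38, and within run 2 it was -2.45.

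The remaining members were not called between Hom-Ctrl and WT-Ctrl. Il1r1 and Il1rap were below the 6 other Ctrl arrays on both Hom-Ctrl arrays, by small margins, with differences of -0.48 (limma adjusted p = 0.145) and -0.54 (limma adjusted p = 0.0958). Counting Il1r2, 3 of 9 members lay below on both arrays, against 8.15% of all probe sets, and 2 of 9 lay above (Il1a and Il1b), against 8.82%. Il18r1 (0.23), Il18 (0.08) and Il33 (0.00) gave limma adjusted p-values of 0.765, 0.926 and 0.998. None of these 5 was called without the array labelled Hom-Ctrl replicate 1. The members' median difference from WT-Ctrl was 0.00, as it was over all probe sets.

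Since the 2 Hom-Ctrl arrays differ in Mycn, the gap between them was read for each member. Its median size was 0.81 over the 9 members and 0.21 over all probe sets, whose 95th percentile was 0.69. Replicate 1 was higher by 1.55 for Il1rn, 1.06 for Il1b, 1.03 for Il1a, 0.83 for Il18, 0.81 for Il33 and 0.55 for Il1r2. For Il18r1 it was lower, with a gap of -0.49. The monocyte and macrophage marker mean was 9.57 on replicate 1 and 8.62 on replicate 2, against 9.13 to 10.15 on the 6 other Ctrl arrays. The same 8 markers gave 0 higher and 2 lower calls between Hom-Ctrl and WT-Ctrl, or 0 and 3 without the array labelled Hom-Ctrl replicate 1. The mast cell and basophil mean over 10 markers was 10.11 to 10.43 in Hom-Ctrl, 9.73 to 10.01 in Het-Ctrl and 9.86 to 10.12 in WT-Ctrl, with 3 of 10 called higher and 0 lower against WT-Ctrl. The neutrophil mean over 10 of 11 markers was 11.46 to 11.57 in Hom-Ctrl, 11.92 to 12.04 in Het-Ctrl and 11.77 to 11.97 in WT-Ctrl, with 0 higher and 1 lower. Progenitor and stromal markers had 0 called in either direction, eosinophil markers 1 lower and lymphoid markers 1 higher. Without the array labelled Hom-Ctrl replicate 1, 2 mast cell and basophil markers were called higher and 0 lymphoid markers. The neutrophil and eosinophil markers each still had 1 called lower. Over all probe sets, 2.03% were called higher and 1.88% lower between Hom-Ctrl and WT-Ctrl. The part of these cell markers in the members' values was not tested.

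**Figure D4:**
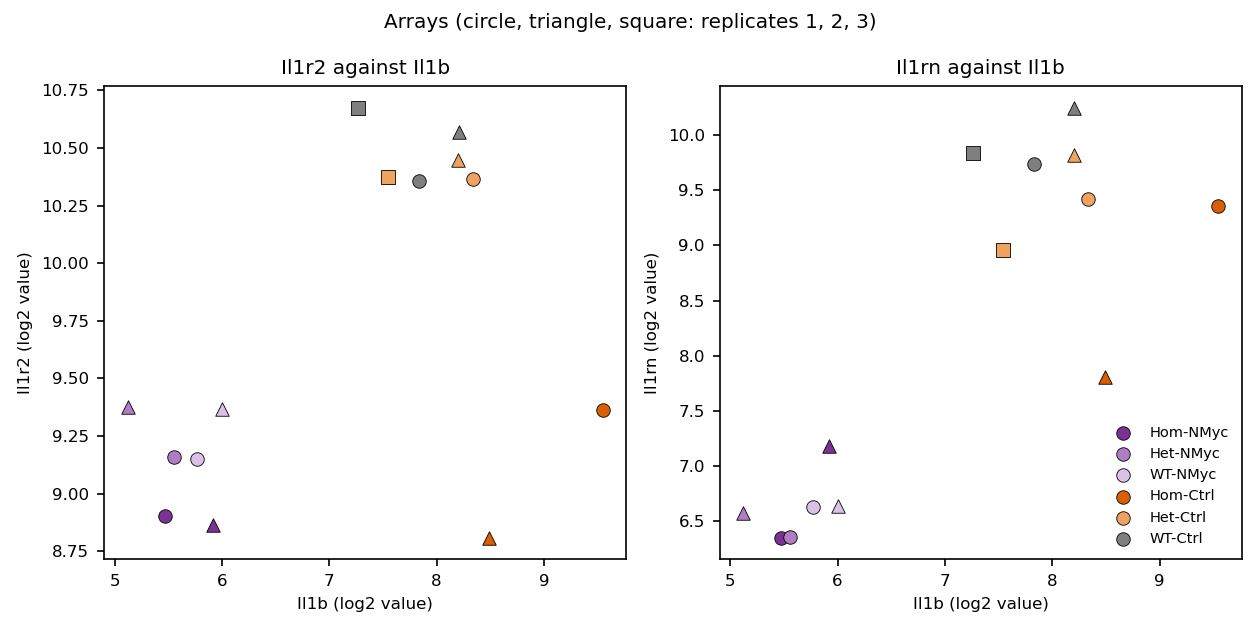
Il1b log2 value (x axis) against that of Il1r2 (left) and Il1rn (right) on the 14 arrays, coloured by group, with circle, triangle and square for replicates 1, 2 and 3. The 2 Hom-Ctrl arrays hold the highest Il1b values (9.55 and 8.49) at Il1r2 values of 9.36 and 8.81, within or under the NMyc range, whereas the Il1rn value of replicate 1 (9.36) is among the other Ctrl arrays.

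Between genotypes in the NMyc-infected cells, 0 of 9 members and 0% of all probe sets were called by limma in each of the 3 comparisons. For Hom-NMyc minus WT-NMyc, 2 members and 1873 probe sets had an unadjusted p under 0.05. The members were Il18 (fitted 0.95, limma adjusted p = 0.397), whose values are near background, and Il1rap (0.45, limma adjusted p = 0.549). Neither WT-NMyc array had Il18 above background, and with dim arrays at background its difference was 0.04. Il1r2 gave -0.38 (limma adjusted p = 0.605) and Il1b -0.19 (limma adjusted p = 0.917) in that comparison.

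Further ligands and receptors of the family were counted over 12 genes, of which 11 had a probe set. Over these, NMyc averaged over the genotypes had 1 called higher and 3 lower, where 18.2% of all probe sets were higher and 15.5% lower. Il1f9, which encodes interleukin-36 gamma, fell by 2.27 (SE 0.15, limma adjusted p = 1.89e-08), with 6.18 to 7.21 on the NMyc arrays and 8.53 to 9.27 on the Ctrl arrays. Il18bp, the secreted binding protein that neutralises interleukin-18, gave -0.65 (limma adjusted p = 3.17e-05), and Il18rap, the accessory chain of the interleukin-18 receptor, gave -0.64 (limma adjusted p = 6.06e-04). The gene called higher was Il1rl2, the interleukin-36 receptor, at 1.07 (SE 0.15, limma adjusted p = 4.55e-05). By genotype Il1rl2 gave 2.09 in Hom and 0.84 in Het, both called, and 0.26 in WT, not called (limma adjusted p = 1.48e-04, 0.0323 and 0.582). The effect in Hom minus that in WT was 1.83 (SE 0.38, limma adjusted p = 0.101).

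Il1rl2 was also lower in Hom-Ctrl. It read 7.16 and 7.66 in Hom-NMyc, 7.35 and 7.76 in Het-NMyc and 7.39 and 7.66 in WT-NMyc. It read 5.71 and 4.92 in Hom-Ctrl, 6.67, 6.33 and 7.13 in Het-Ctrl and 7.14, 7.15 and 7.49 in WT-Ctrl. Both Hom-Ctrl arrays were the lowest of the 14, and the NMyc groups lay together. The difference from WT-Ctrl was -1.94 (SE 0.26, limma adjusted p = 0.0013), or -2.34 without the array labelled Hom-Ctrl replicate 1 (limma adjusted p = 0.00151). Of the 11 measured genes, 0 were called higher and 2 lower between Hom-Ctrl and WT-Ctrl, the other being Il18bp (-0.69, limma adjusted p = 0.021). Over all probe sets, 2.03% were higher and 1.88% lower in that comparison. Il18bp was not called without the array labelled Hom-Ctrl replicate 1 (-0.69, limma adjusted p = 0.0812), Hom-Ctrl replicate 2 (-0.69, limma adjusted p = 0.144) or WT-Ctrl replicate 3 (-0.58, limma adjusted p = 0.0684).

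Genes that process and release the cytokines split by direction. Of 14 measured, NMyc averaged over the genotypes had 4 called higher and 6 lower, and the list's median was -0.16. Over all probe sets, 18.2% were higher and 15.5% lower. Nlrp3, the sensor of the best studied inflammasome, fell by 1.27 (limma adjusted p = 3.22e-05), and Casp4, the caspase that senses cytosolic endotoxin, fell by 1.18 (limma adjusted p = 8.01e-07). Capn2, a calpain subunit, fell by 1.79, and Gsdmd, the pore-forming gasdermin, by 0.46 (limma adjusted p = 3.22e-09 and 3.12e-04). Nlrc4, another inflammasome sensor, rose by a fitted 1.53 (limma adjusted p = 4.21e-06), and Elane, neutrophil elastase, rose by 0.47 (limma adjusted p = 4.91e-04). The size of the Nlrc4 difference is not exact. Nlrc4 read 5.19 to 6.51 on the NMyc arrays and 3.78 to 5.43 on the Ctrl arrays, and was not above background on any Het-Ctrl or Hom-Ctrl array. Between Hom-Ctrl and WT-Ctrl, 0 of the 14 were called, where 3.91% of all probe sets were.

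In the receptor signalling chain, 17 of 21 genes had a probe set, and NMyc had 3 called higher and 7 lower, with a median of -0.05. Over all probe sets, 18.2% were higher and 15.5% lower. Irak2, a kinase of the receptor complex, fell by 1.26 (limma adjusted p = 9.58e-09). Nfkbia, the inhibitor of NF-kappaB that is also its target, fell by 1.34 (limma adjusted p = 6.5e-07). Peli2 and Peli1, ubiquitin ligases of the pathway, fell by 1.07 and 0.47 (limma adjusted p = 8.14e-05 and 0.00121). Mapk8 and Map3k7, kinases downstream of the receptor, rose by 0.61 and 0.38 (limma adjusted p = 0.00159 and 0.00216). None of the 17 was called between Hom-Ctrl and WT-Ctrl, where 3.91% of all probe sets were.

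The genes known as targets of IL-1 signalling were mostly lower with NMyc, with 0 of 14 called higher and 10 lower and a median of -1.22. Over all probe sets, 18.2% were higher and 15.5% lower with NMyc. Il6, an inflammatory cytokine, fell by 2.51 (limma adjusted p = 2.69e-09), and its 6 NMyc arrays (9.20 to 9.92) were below its 8 Ctrl arrays (11.35 to 12.32). Ptgs2, the inducible cyclooxygenase, fell by 1.90 (limma adjusted p = 7.67e-08), and Nfkbiz, an NF-kappaB cofactor, gave -1.81 (limma adjusted p = 5.72e-07). Cxcl2 and Ccl2, chemokines for neutrophils and monocytes, gave -1.75 and -1.72, and Tnfaip3, a brake on NF-kappaB, gave -1.71 (limma adjusted p = 4.63e-07, 7.98e-07 and 3.68e-07). Between Hom-Ctrl, where Il1a and Il1b were higher, and WT-Ctrl, 0 of these 14 were called higher and 1 lower, where 2.03% of all probe sets were higher and 1.88% lower. The list's median was -0.07, or -0.39 without the array labelled Hom-Ctrl replicate 1, again with 0 higher and 1 lower. The gene called lower was Ccl2 (-1.14, limma adjusted p = 0.0346), at 8.48 and 7.04 in Hom-Ctrl, against 8.98, 8.74 and 8.99 in WT-Ctrl. It was -1.86 without the array labelled Hom-Ctrl replicate 1 (limma adjusted p = 5.19e-04). It was not called without Hom-Ctrl replicate 2 (-0.42, limma adjusted p = 0.376), WT-Ctrl replicate 1 (-1.10, limma adjusted p = 0.0693) or WT-Ctrl replicate 3 (-1.10, limma adjusted p = 0.0927).

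**Figure D5:**
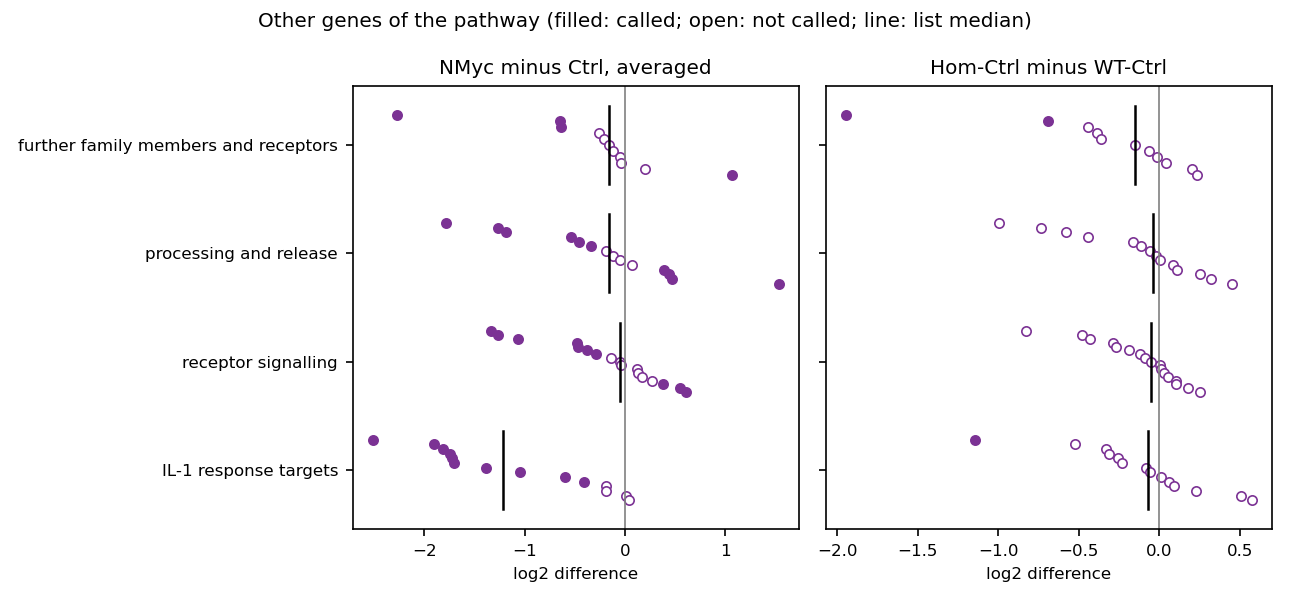
Log2 differences (x axis) of the other pathway genes in 4 lists for NMyc minus Ctrl averaged over genotypes (left) and Hom-Ctrl minus WT-Ctrl (right), filled where limma's adjusted p was under 0.05, with a vertical line at each list's median. The 14 IL-1 response targets have a median of -1.22 on the left and -0.07 on the right, where only Ccl2 and, among the further receptors, Il1rl2 and Il18bp are filled.

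For the 4 members whose values spanned at least 2 units, the genes with the most similar pattern over the 14 arrays were listed by Pearson's r. For Il1b, Il1rn and Il18r1, r follows the split between the vectors. Il1a overlapped between the vectors and was above background on only 3 of 14 arrays, both of Hom-Ctrl among them. The most similar genes were H2-K1 (r = 0.978), H2-Q5 and Txk (both 0.976) for Il1b, and Fam20c (0.991), Alcam (0.989) and Plxnc1 (0.986) for Il1rn. For Il18r1 they were Khnyn (0.987), Gem (0.986) and Rara (0.985), and for Il1a Cdc25b (0.916), Muc15 (0.900) and Uap1 (0.892). Over the 8 Ctrl arrays alone, the most similar were Serpina3n (0.971) for Il1b, Crebzf (0.983) for Il1rn, Defb6 (0.962) for Il18r1 and Kcnmb2 (0.965) for Il1a. Khnyn was among the 3 most similar to Il18r1 over both sets of arrays. Arrays share a culture, a vector group and a normalization, so these are descriptions only.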

How the data were processed

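RNA of 14 HPC samples in 6 groups was labelled and hybridised to Affymetrix whole-transcript arrays. Per the submitters' processing notes, the authors used Affymetrix Expression Console, and the deposited values are on the log2 scale, judged from their range (2.24 to 13.5). Normalization, summary method and software version: not given in the sources used here. Scaling before deposit could have removed a shift common to most transcripts. Of 28846 probe sets, 6640 control sets were recognised by their IDs and left out, which left 22206 for testing. Of these, 19572 had 1 gene symbol in the platform annotation, 0 had several and 2634 had none, and a RefSeq gene table (GRCm38.p6) changed 0 symbols. All 9 measured members had a single probe set, so no choice between sets was needed.

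Tests used limma 3.58.1 in R 4.3.3 on the values as deposited. A model of 6 group means over the 14 arrays was moderated with eBayes (8 residual and 7.3 prior degrees of freedom), and 13 two-sided differences were adjusted by Benjamini-Hochberg over all tested probe sets, with a call at an adjusted p under 0.05. P-values measure the spread between these arrays, whose small number limits the precision. For a bound, dim arrays (at or under the negative control median) were put at that median. That background level was chosen for want of detection calls. The fit was checked on simulated data. The members and lists were chosen with earlier results of these data known. The lists covered further family genes, processing, signalling, targets and cell markers, and genes of the first 4 were named where called, up to 6 per list by p, in the averaged NMyc effect or in Hom-Ctrl minus WT-Ctrl.

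Alternatives covered normalization, control filtering, moderation, groups fitted, array weights, blocks for replicate number or code run, and leaving out each array. Replicate numbers were not taken to pair the samples in general: deviations of same-numbered arrays correlated at 0.24 to 0.27 for Het-Ctrl with WT-Ctrl, where every pair was above 0.1, and at -0.13 to 0.19 elsewhere. Sample codes form 3 blocks of adjacent numbers (runs): the first replicates of the Ctrl groups make up run 1, their second replicates with the first NMyc replicates run 2, and the remaining arrays, with no Hom-Ctrl, run 3. Nothing in the labels says that these were batches.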

Additional observations from a re-analysis of the deposited data

How the results depend on the processing

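Over 24 alternative settings, the 27 called differences of the members gave 648 values, of which 599 kept their call and direction, 49 lost the call and 0 changed sign. The 90 differences that were not called gave 2160 values, of which 7 became called and 74 changed sign without a call. Those 7 were the NMyc difference of Il1a in WT (runs 2 and 3 alone), that of Il18 in Hom (2 settings, with Hom-Ctrl not above background), Il1rap in Hom-Ctrl minus WT-Ctrl (run as a block), Il1rn in Hom-Ctrl minus Het-Ctrl (without Hom-Ctrl replicate 1) and the difference of NMyc effects of Il1r2 between Hom and WT (2 settings). The count for Hom-Ctrl minus WT-Ctrl was 4 members. It was 1 with only the AFFX control sets left out and 1 with only the groups compared in the fit. It was 2 with array weights, 2 with the replicate block and 2 with code runs 2 and 3 alone, and 2 to 4 when each array was left out in turn. The count for Hom-Ctrl minus Het-Ctrl was 2, or 1 with only the AFFX sets left out, 1 with only the groups compared, and 1 to 2 when each array was left out. The difference of the NMyc effects between Hom and WT had 0 called members, or 1 (Il1r2) with an intensity trend and robust moderation, and 0 to 1 when each array was left out. Leaving out each array gave 6 to 6 members for the averaged NMyc effect, 4 to 6 in WT, 4 to 5 in Het and 3 to 4 in Hom. Over all probe sets, Hom-Ctrl minus WT-Ctrl had 868 calls, or 99 to 928 when each array was left out and 182 with only its own groups in the fit. For Het-Ctrl and WT-Ctrl, whose numbers pair the arrays by correlation, the replicate block left 0 members called. The block ended the calls of Il1b and Il1rn in Hom-Ctrl minus WT-Ctrl and no other call of a member. The code run as a block ended the same 2 calls (limma adjusted p = 0.0546 and 0.0625). The causes of these changes were not tested. Some of the settings put fewer arrays or more features in a fit. Il1a and Il18 were near background on most arrays, and Il1r1 and Il33 were under the 95th percentile of the negative control sets on all, which limits what their differences can show. Groups of 2 or 3 arrays were too small to look for single outlying arrays by a fixed criterion.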
